A study of Mus musculus with 2 samples.

Results

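The brains of dams lacking TDAG51 were compared for 10 genes that encode neuropeptide precursors of hypothalamic neurons, namely Hcrt, Pmch, Agrp, Trh, Gal, Cartpt, Ghrh, Gnrh1, Kiss1 and Nts. They were chosen by gene name, and 12 of the 41174 probes on the array carried these names, out of 19505 gene names that could be matched. TDAG51, the product of Phlda1, is a pleckstrin homology-like domain protein. The study asked how its loss alters transcripts of the maternal brain. All brains came from C57BL/6J female mice aged 8 weeks on postpartum day 0. A TDAG51 KO sample (TDAG51-/-) was labelled with Cy3 on each of 2 two-colour arrays. On the first array it was hybridised with a TDAG51 WT sample (TDAG51+/+) in Cy5, and on the second with a TDAG51 KO Tg sample in Cy5 (TDAG51-/-Tg2), which carried the same deletion and a TDAG51 transgene. The transgene was driven by the BAI1-AP4 promoter, which is active mainly in the cerebral cortex and hippocampus. The number of dams behind each sample and whether 1 extract of KO RNA served both arrays are not given in the sources used here. For the second array the labels list the KO Tg genotype among the traits of the Cy3 channel, whereas the source names and dyes put KO in Cy3 and KO Tg in Cy5. The source names were followed. Between the arrays, 0.274% of 29879 probes differed by at least 2-fold in Cy3 and 6.79% in Cy5.

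Hypothalamic neuropeptides are made as large precursors, cut at pairs of basic residues by prohormone convertases, and released by small groups of neurons that project widely or into the portal blood of the pituitary. Each of these groups is anatomically restricted: hypocretin and melanin-concentrating hormone neurons lie in the lateral hypothalamus, AgRP and GHRH neurons in the arcuate nucleus, and GnRH neurons are scattered through the preoptic area and septum. Galanin, CART and neurotensin are also made in many other places of the brain. RNA of such cells is diluted in a whole brain sample, and a lower signal from fewer cells of a type cannot be told apart from less RNA in each cell.

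Every probe was a single spot, and all 12 were well above background and below saturation in all 4 channels. The comparison has 1 array against WT and 1 against KO Tg, with no dye swap and no replicate, so no test of a difference between genotypes was possible. A ratio is given as log2 of Cy3 (KO) over Cy5 (control) after normalisation, and the error beside it is the scanner software's error of that spot, which is technical. Because KO was always in Cy3, a preference of a probe for 1 dye cannot be told apart from genotype. Both comparisons have TDAG51 KO brain in Cy3, and whether it was 1 extract is not given. Their ratios are therefore set side by side and are not taken as independent of each other. The Phlda1 probe (chr10:110970234-110970293) read 350.5 in KO and 7283 in WT on the first array, 17.3-fold lower in KO. On the second array it read 44.1 in KO and 50.5 in KO Tg, both near background, so the KO reading differed between the arrays and the transgene was not detected by this probe. Whether the transgene holds the probe's sequence is not given in the sources used here, and KO Tg below means the sample labelled so.

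The probes on which the results turn are shown 5′ to 3′, with the strand and position in mouse build mm7 given at each gene below. Capitals mark adjacent codons for lysine and arginine, the pair at which convertases cut, in a reading frame of the probe without a stop. The Gnrh1 probe holds such a pair just after the code of the GnRH peptide, and the Nts probe after that of neurotensin, while in Cartpt it stands before the CART peptide. For Hcrt, Pmch, Trh and Ghrh the first 30 bases of the 60-base probe are printed. The probes hold transcript sequence; for the probes other than those of Gnrh1, Nts and Cartpt, their place in coding sequence or UTR was not determined.
Hcrt: gggagggtccggagtctgaacccatcttct
Pmch: tgtctgttttaaaaggacctggttaagata
Trh: cttacccacttcaggaacttcaaagagcca
Gal: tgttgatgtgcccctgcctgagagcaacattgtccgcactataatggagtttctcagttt
Gnrh1: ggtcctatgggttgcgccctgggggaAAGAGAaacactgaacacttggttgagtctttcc
Ghrh probe 1: tcaaacacaacggccataatgaagaaaagc
Ghrh probe 2: aactgtaccctgttacttctgcttcagctc
Cartpt probe 1: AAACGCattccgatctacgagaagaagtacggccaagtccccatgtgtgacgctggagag
Cartpt probe 2: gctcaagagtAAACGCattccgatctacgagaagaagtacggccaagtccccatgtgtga
Nts: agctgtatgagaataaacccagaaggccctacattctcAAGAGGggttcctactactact
The Cartpt probes share 50 bases and so read nearly the same stretch of the transcript. The Ghrh probes do not overlap.

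The lateral hypothalamic peptides were lower in KO brain than in either control. Hcrt encodes hypocretin (orexin), which maintains wakefulness. Its probe (chr11:100870792-100870851, minus strand) gave a scanner signal of 2083 in KO and 6651 in WT on the first array, and 2355 in KO and 6252 in KO Tg on the second. The log2 ratio was -1.39 ± 0.24 against WT (2.61-fold lower in KO) and -1.10 ± 0.23 against KO Tg (2.14-fold lower). Both KO readings were thus close to each other and both control readings lay far above them. Only 1.78% of measured probes had a lower ratio against WT, and 3.03% against KO Tg.

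Pmch encodes melanin-concentrating hormone, made by neighbouring neurons that promote feeding and sleep. Its probe (chr10:87650497-87650556, plus strand) read 3520 in KO and 9928 in WT, then 3814 in KO and 12690 in KO Tg. KO was 2.19-fold lower than WT, at a log2 ratio of -1.13 ± 0.23, and 2.51-fold lower than KO Tg, at -1.33 ± 0.24. Hcrt and Pmch were the member probes at least 2-fold lower against both controls, where 1.37% of all 33257 probes measured on both arrays were so. Pmch overlaps Parpbp in the gene annotation, and the Parpbp probes gave log2 ratios of -0.31 and -0.00 against WT and of -0.33 and -0.02 against KO Tg. Pmch lies 23.3 Mb from the targeted Phlda1 locus on chromosome 10.

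Gnrh1 stood at the other end. It encodes GnRH, the peptide through which the hypothalamus drives the gonadotropins of the pituitary. Its probe (chr14:62605094-62605153, plus strand) read 1479 in KO and 305.1 in WT on the first array, and 1522 in KO and 210.9 in KO Tg on the second. The KO signal exceeded both controls, by 5.21-fold over WT (log2 ratio 2.38 ± 0.31) and by 7.85-fold over KO Tg (2.97 ± 0.37). These ratios were above those of 99.6% and 99.9% of measured probes. Gnrh1 was the single member probe at least 2-fold higher in KO against both controls, beside 2.69% of all probes. Gnrh1 overlaps Gm52126 in the gene annotation, for which no probe was named. The receptor gene Gnrhr was near background in both channels of both arrays. The 3 other gene names whose pair of ratios came closest to that of Gnrh1, among 29878 probes measured in all channels and over these 2 ratios only, were Hapln2 at 2.40 and 2.90, Ptpn22 at 2.53 and 3.02, and Nrk at 2.45 and 3.14, with distances of 0.07, 0.16 and 0.19 on the log2 scale.

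**Figure D1:**
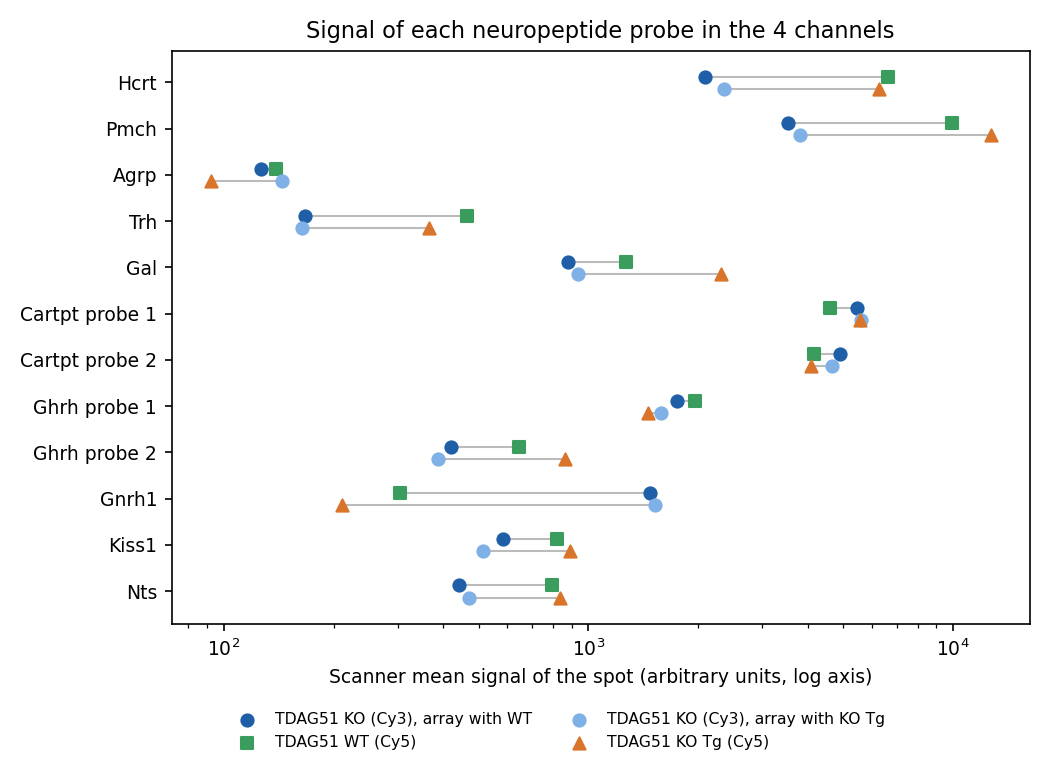
Scanner mean signal (arbitrary units, log axis) of each neuropeptide probe in the 4 channels; circles are TDAG51 KO in Cy3 on the array with WT (dark) and on that with KO Tg (light), squares are WT and triangles KO Tg in Cy5, and grey lines join the channels of 1 array. The 2 KO circles lie close together for every probe, for example 1479 and 1522 for Gnrh1, while WT (305.1) and KO Tg (210.9) are far below them for Gnrh1 and far above for Hcrt, Pmch and Trh; levels of different probes are not comparable.

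Marker genes of whole brain regions also differed between the KO sample and both controls. All 9 cerebellar markers were at least 2-fold higher in KO on both arrays, with median log2 ratios of 2.24 and 2.18 and summed levels of 281736 to 289349 in KO, 45017 in WT and 48316 in KO Tg. The brightest probes of Cbln1, which gave both medians, and of Pcp2 were saturated in KO. These medians and the KO sums are therefore lower bounds. Of 10 hindbrain and brainstem markers, 8 were higher against WT and 9 against KO Tg, with medians of 2.51 and 2.59 and summed levels of 8788 to 9058 in KO, 1810 in WT and 1647 in KO Tg. Of 9 striatal markers, 7 were at least 2-fold lower on each array, with medians of -1.54 and -1.79 and summed levels of 46332 to 51223 in KO, 125294 in WT and 119554 in KO Tg. The 7 general neuronal markers had medians of -0.28 and -0.03, with 1 lower against KO Tg and none past 2-fold against WT. The 5 thalamic markers had medians of 0.44 and -0.02. The brightest probes of Eno2 (neuronal, 0.60 and 0.53) and Tcf7l2 (thalamic, 0.71 and 0.62) were saturated in Cy5 on both arrays. Their ratios are upper bounds that enter these medians, which may therefore be too high. The regional shifts stand in the same samples as the ratios of Hcrt, Pmch and Gnrh1 above and of the other peptides below. Their part in those ratios was not tested.

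Trh and Gal passed the 2-fold line against 1 control each. Trh encodes thyrotropin-releasing hormone, which stimulates thyrotropin and prolactin release. Its probe (chr6:92324912-92324971, minus strand) read 166.5 in KO and 465.8 in WT, then 163.7 in KO and 364.9 in KO Tg. The log2 ratio was -1.37 ± 0.26 against WT (2.58-fold lower) and -0.88 ± 0.24 against KO Tg (1.84-fold lower). The KO signal was below both controls, and the ratio against KO Tg passed 2-fold under 4 of the other processing settings, where it ranged down to -1.22.

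Gal encodes galanin, a peptide of many hypothalamic and brainstem neurons and also of prolactin cells of the pituitary. Its probe (chr19:3305949-3306008, minus strand) read 876.5 in KO against 1265 in WT, and 935.3 in KO against 2309 in KO Tg. The log2 ratio was -0.34 ± 0.21 against WT and -1.05 ± 0.23 against KO Tg (2.07-fold lower in KO). The KO readings were alike on both arrays, and the control reading was higher in KO Tg than in WT. Between the Cy5 channels Gal was 1.75-fold higher in KO Tg than in WT (log2 difference 0.80). The robust SD of this difference over 29879 probes was 0.40. Of these probes 6.79% differed by at least 2-fold, a line that Gal did not pass. Of the pituitary genes, Prl and Gh were also higher in KO Tg. Prl read 80.2 in WT, 5192 in KO Tg and 89.7 and 222.7 in KO on the first and second array. Gh read 74.3 in WT, 1512 in KO Tg and 75.5 and 108.8 in KO. These were the 2 of 8 pituitary genes above background that were at least 2-fold lower in KO against KO Tg, while Cga (0.84), Tshb (0.40), Lhb (-0.15) and Fshb (-0.28) were under 2-fold in log2 ratio by their brightest probes. Against WT none was lower and 1 (Cga) was higher. The summed level of all 9 was 4079 in WT, 9912 in KO Tg and 3738 to 3771 in KO. Pitx1 was near background throughout. Their part in the Gal ratio was not tested.

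The arcuate peptides did not move as a group. Agrp encodes the melanocortin antagonist AgRP, which stimulates feeding. Its probe (chr8:104165802-104166018, minus strand, a span of 217 bases that crosses an intron) gave low signals and read 126.3 in KO and 139.3 in WT, then 144.5 in KO and 92.1 in KO Tg. The log2 ratio was -0.11 ± 0.22 against WT, within its error, and 0.72 ± 0.28 against KO Tg (1.64-fold higher in KO). At this signal the ratio against KO Tg depended on the background correction and the normalisation and lay between 0.55 and 1.36.

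Ghrh encodes growth hormone-releasing hormone, and its probes disagreed. Probe 1 (chr2:157074699-157074758, minus strand) read 1748 in KO and 1963 in WT, then 1586 in KO and 1454 in KO Tg, with log2 ratios of 0.05 ± 0.20 and 0.36 ± 0.21. Probe 2 (chr2:157070407-157070466, minus strand) read 418.8 in KO and 646.9 in WT, then 388.0 in KO and 860.3 in KO Tg, with log2 ratios of -0.48 ± 0.21 and -0.89 ± 0.23. Probe 2 thus read lower in KO against both controls and probe 1 did not, and the ratio of probe 1 against WT changed sign with the normalisation (-0.02 with median centring and -0.17 with none). No direction can be given for Ghrh as a gene from this pair.

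Cartpt encodes CART, a peptide of arcuate and many other neurons that restrains feeding. Its probes (chr13:96968656-96969645 and chr13:96968666-96969655, minus strand, each a span of 990 bases across an intron) gave log2 ratios of 0.57 ± 0.21 and 0.55 ± 0.21 against WT and of 0.37 ± 0.21 and 0.52 ± 0.21 against KO Tg, all under 2-fold. The signals of probe 1 were 5455 in KO and 4605 in WT, then 5585 in KO and 5571 in KO Tg. Those of probe 2 were 4905 in KO and 4152 in WT, then 4659 in KO and 4066 in KO Tg. Both probes were higher in KO on the log2 scale, and with no normalisation the ratio of probe 1 against KO Tg was 0.00, so its size depended on the dye normalisation.

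Kiss1 and Nts read lower in KO on both arrays and did not reach 2-fold. Kiss1 encodes kisspeptin, which excites GnRH neurons. Its probe (chr1:133230321-133230380, plus strand) read 584.2 in KO and 822.2 in WT, then 515.0 in KO and 889.3 in KO Tg, with log2 ratios of -0.33 ± 0.21 and -0.55 ± 0.21. Kiss1 overlaps Golt1a in the gene annotation, and whether the Kiss1 probe also reads Golt1a was not tested. The probe of Golt1a itself gave log2 ratios of -0.38 and -0.03. Nts encodes neurotensin, which modulates dopamine transmission and feeding. Its probe (chr10:101968978-101969037, minus strand) read 440.4 in KO and 797.1 in WT, then 471.3 in KO and 836.8 in KO Tg. The log2 ratio was -0.69 ± 0.22 against WT (1.61-fold lower) and -0.58 ± 0.22 against KO Tg (1.5-fold lower). KO was below both controls to a similar extent, and 9.72% and 12.3% of measured probes had a lower ratio. Nts lies 9.0 Mb from Phlda1.

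**Figure D2:**
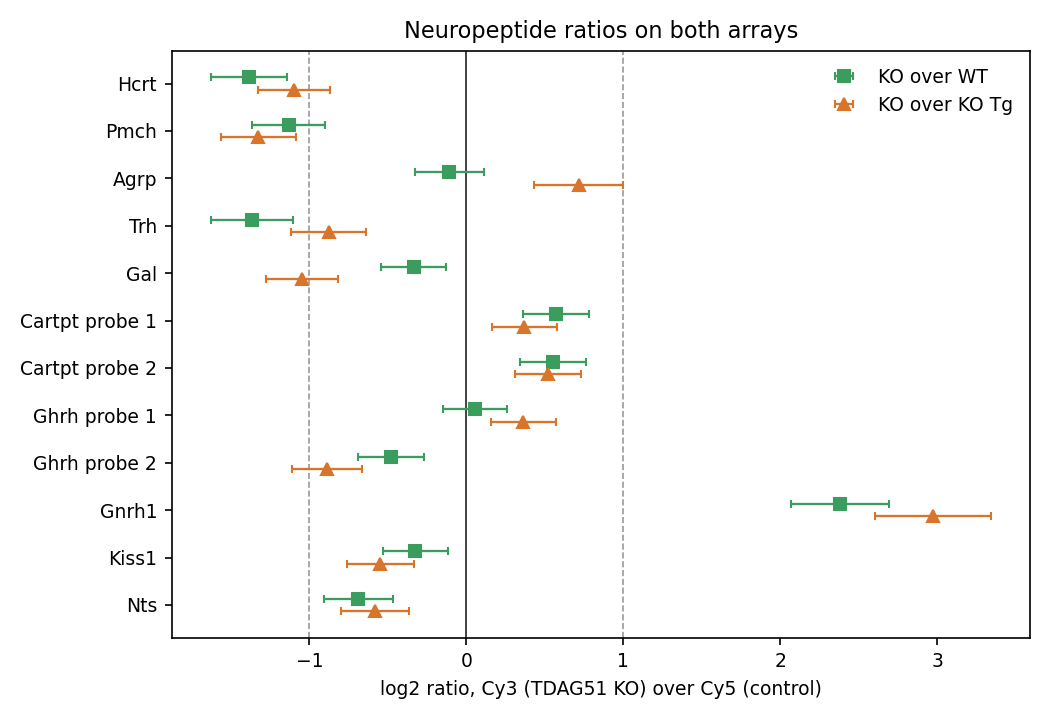
Log2 ratio of Cy3 (TDAG51 KO) over Cy5 (control) for the 12 probes, against WT (squares) and KO Tg (triangles); bars are the scanner error of the spot (technical, 1 array each) and dashed lines mark 2-fold. Hcrt (-1.39 and -1.10) and Pmch (-1.13 and -1.33) lie beyond the lower line on both arrays and Gnrh1 (2.38 and 2.97) beyond the upper one.

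Over all 12 probes, 3 were at least 2-fold lower in KO than in WT (Hcrt, Pmch and Trh) and 1 was higher (Gnrh1). Among the 34576 probes that passed the filter in this comparison, 4.42% were lower and 4.9% were higher. Against KO Tg, 3 were lower (Hcrt, Pmch and Gal) and 1 was higher (Gnrh1), where 3.86% and 4.72% of 33805 probes were. The counts are small and describe these arrays. The median log2 ratio of the 10 genes, each by its brightest probe, was -0.33 against WT and -0.56 against KO Tg, while that of all filtered probes was 0.01 in both comparisons.

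Between the arrays, the Cy5 channels set the KO Tg sample against the WT sample. All 12 probes differed by less than 2-fold there, except that Agrp passed it (-1.02) when the background was corrected with an offset of 0. Gal was higher in KO Tg by 0.80 on the log2 scale, Ghrh probe 2 by 0.32, Pmch by 0.31 and Cartpt probe 1 by 0.24. Agrp stood at -0.63, that is lower in KO Tg, Gnrh1 at -0.56, Ghrh probe 1 at -0.46 and Trh at -0.43. Hcrt (-0.11), Cartpt probe 2 (-0.06), Kiss1 (0.04) and Nts (-0.01) were nearly level. The KO channels of the same arrays differed by -0.18 to 0.20 over the 12 probes. The robust SD of the log2 difference over 29879 probes was 0.40 for KO Tg against WT and 0.14 for KO against KO.

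**Figure D3:**
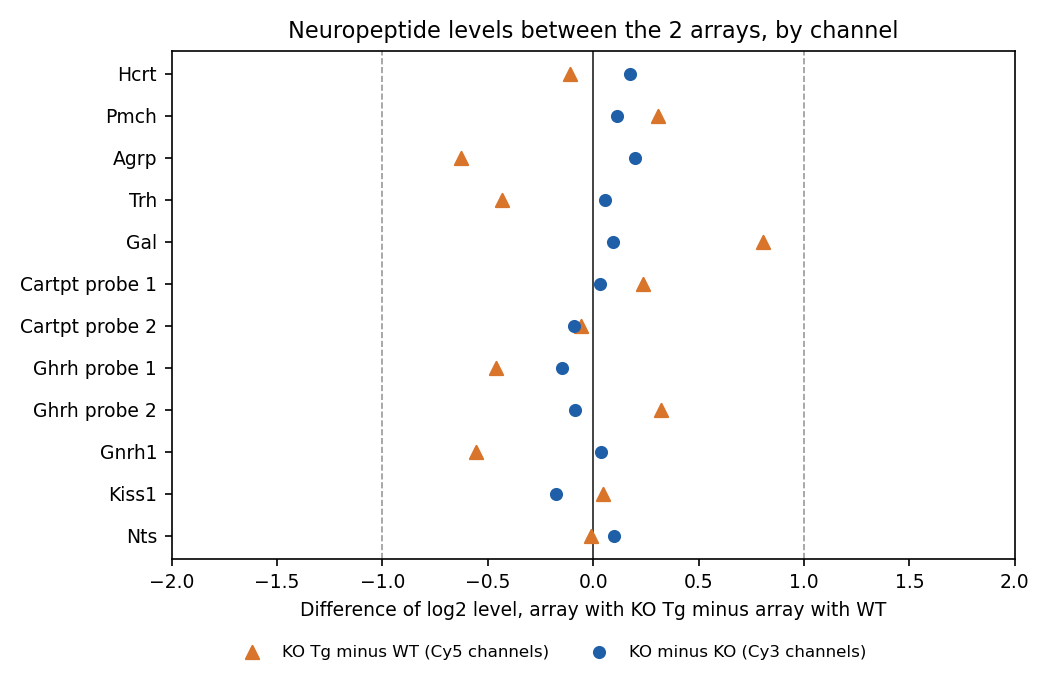
Difference of the log2 level of each probe between the array with KO Tg and that with WT; triangles are the Cy5 channels (KO Tg minus WT) and circles the Cy3 channels (KO minus KO), and dashed lines mark 2-fold. The circles stay between -0.18 and 0.20, and the triangles reach from -0.63 for Agrp to 0.80 for Gal.

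Among receptors of these peptides, calls depended on the processing. Of 16 receptor genes, 14 were above background on the array with WT, where 1 was at least 2-fold lower and 1 higher, and 12 on the array with KO Tg, where none was past 2-fold, beside 4.42% lower and 4.9% higher of all probes against WT and 3.86% and 4.72% against KO Tg. With the scanner or deposited ratio 3 were lower and 2 higher against WT and 1 each against KO Tg. The median log2 ratio was -0.29 and 0.16. Hcrtr1, a hypocretin receptor of locus coeruleus and other brainstem neurons, gave log2 ratios of 0.91 against WT and 0.96 against KO Tg (1.88-fold and 1.95-fold), opposite in sign to those of Hcrt. It passed 2-fold against both controls with offset 0 (1.11 and 1.15), the scanner ratio (1.15 and 1.23) and the deposited ratio (1.16 and 1.22), and not with median centring or no normalisation (0.81 and 0.76 with none). Hcrtr2, by its brightest probe, gave 0.51 and 0.21. Mchr1, the receptor of melanin-concentrating hormone, gave -0.27 and -0.42. For thyrotropin-releasing hormone, Trhr gave -0.31 and -0.17 and Trhr2 gave -0.80 and -0.96, past 2-fold against both with the scanner ratio (-1.07 and -1.30). Among galanin receptors, Galr3 gave -0.61 and -0.51, Galr1 was at least 1.81-fold lower in KO than in WT and near background in both channels of the other array, and Galr2 was near background on both.

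The receptors past 2-fold against WT as reported were those of other members. Mc3r, a melanocortin receptor on which AgRP acts, was 2.70-fold lower in KO than in WT by its brightest probe and gave a log2 ratio of -0.42 against KO Tg, while its other probe gave 0.14 and 0.35. Ntsr1, a neurotensin receptor of dopamine neurons, was 2.12-fold higher in KO than in WT and gave 0.46 against KO Tg, and with no normalisation its ratio against WT was under 2-fold (0.86). Neither was past 2-fold against both controls.

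Enzymes that make and destroy the peptides showed no common shift past 2-fold. None of the 7 processing genes was past 2-fold on either array by its brightest probe, and their median log2 ratio was -0.25 against WT and -0.15 against KO Tg. The probes of Pcsk1 disagreed. Its brightest probe gave -0.49 against WT and 0.32 against KO Tg. Its other probe gave -0.16 against WT and was at least 3.42-fold higher in KO than in KO Tg. Cpe, the carboxypeptidase that trims the basic residues left after cleavage, gave -0.83 and -0.81, and passed 2-fold with median centring (-1.34 and -1.30) and with no normalisation (-1.49 and -1.48). Of 6 genes for inactivating peptidases, Nln (neurolysin, which degrades neurotensin) was 10.8-fold lower in KO than in WT and at least 2.25-fold higher than in KO Tg by its brightest probe, whereas its other probe gave -0.21 on both arrays. The median of these 6 genes was 0.15 and 0.01.

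Of 13 other hypothalamic precursor genes, 11 had a probe. On the array with WT, 10 were above background and 2 were at least 2-fold lower and 1 higher. On that with KO Tg, 9 were above background and 1 was lower and none higher. Ucn, the gene higher against WT (3.19-fold), had no value on the array with KO Tg. Of all probes, 4.42% were lower and 4.9% higher against WT, and 3.86% and 4.72% against KO Tg. These shares also stand beside the counts of transcription factors below. The medians were -0.26 and -0.41. Prok2, a secreted signal of the suprachiasmatic nucleus and olfactory bulb, was lower in KO against both controls, by 3.98-fold and 3.34-fold. Among 12 transcription factors of hypothalamic development, Nkx2-1, which specifies ventral hypothalamus, was 2.62-fold lower than in WT and 2.29-fold lower than in KO Tg. Foxb1 went the other way, 2.38-fold higher in KO than in WT and 1.91-fold higher than in KO Tg. Of this list 10 and 9 genes were above background, 2 were lower on each array (1 to 4 against WT and 1 to 3 against KO Tg under the alternatives), 1 was higher against WT and none against KO Tg, and the medians were -0.12 and -0.55. Otp and Six6 were near background in both channels of both arrays.

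**Figure D4:**
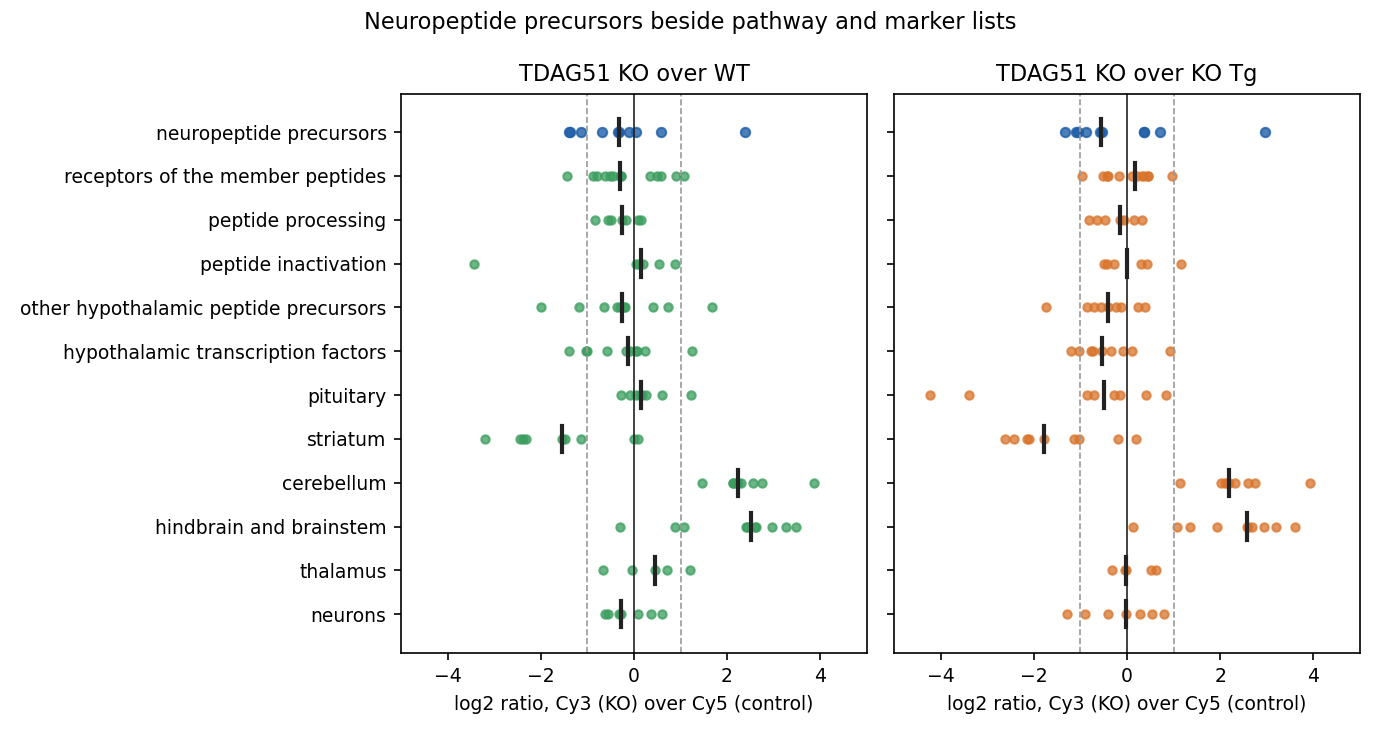
Log2 ratio of Cy3 (TDAG51 KO) over Cy5 (control) of the neuropeptide precursors and of each pathway and marker list, against WT (left) and KO Tg (right); points are genes above background by their brightest probe, black bars the medians and dashed lines 2-fold. The neuropeptide medians (-0.33 and -0.56) lie nearer 0 than those of the striatal (-1.54 and -1.79), cerebellar (2.24 and 2.18) and hindbrain lists (2.51 and 2.59). They lie farther from 0 than those of all remaining lists, except the thalamic list against WT (0.44). The transcription factors came close against KO Tg (-0.55).

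The calls for Hcrt, Pmch and Gnrh1 were the same under every processing alternative that was run. Hcrt ranged from -1.67 to -1.39 against WT and from -1.41 to -1.10 against KO Tg on the log2 scale, Pmch from -1.49 to -1.13 and from -1.73 to -1.33, and Gnrh1 from 2.22 to 2.59 and from 2.75 to 3.31. Trh was at least 2-fold lower against WT throughout (-1.75 to -1.32), and Gal at least 2-fold lower against KO Tg (-1.29 to -1.05).

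**Figure D5:**
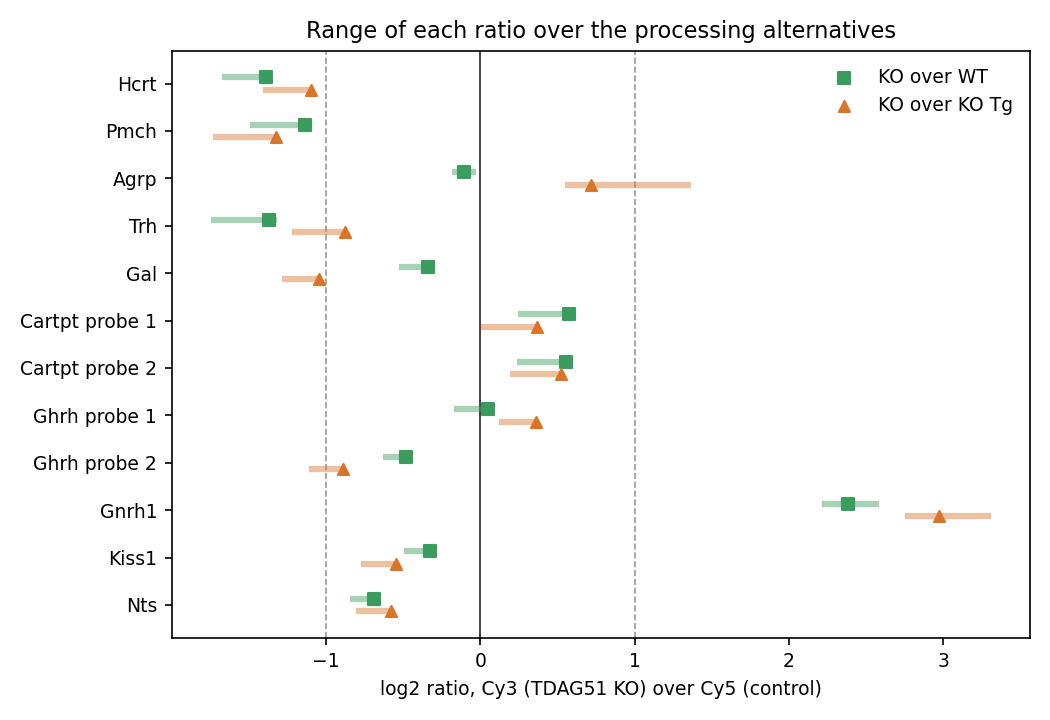
Log2 ratio of Cy3 (TDAG51 KO) over Cy5 (control) of each probe as reported (markers) and its range over the alternative background corrections, normalisations and deposited ratios (bars), against WT (squares) and KO Tg (triangles); dashed lines mark 2-fold. The bars of Hcrt, Pmch and Gnrh1 stay beyond 2-fold, and those of Trh (to -1.22), Ghrh probe 2 (to -1.11) and Agrp (to 1.36) against KO Tg cross it.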

How the data were processed

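Whole brain RNA of TDAG51 KO, WT and KO Tg dams was hybridised to 2 two-colour Agilent arrays. Files of Agilent Feature Extraction (version 9.5.3.1) were deposited by the authors for each array. Per the file headers, the intensity values are linear spot means of the scanner, and the scanner software made the log10 ratio (Cy5 over Cy3) and its error from spatially detrended, dye-normalised signals. The authors also deposited a table of log2 ratios, which matched log2 of Cy3 over Cy5 (r = 0.982 and 0.984 with the scanner ratio, column medians -0.01 and -0.01); how its values were filtered is not given in the sources used here.

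Control spots and 375 and 300 outlier spots were left out. Intensities were background-corrected (normexp, offset 50) and loess-normalised within each array in limma 3.58.1 (R 4.3.3), and the spots of a probe averaged. Channels were set between arrays after Aquantile scaling. Median raw signals were 338.2 and 336.1 (Cy3) and 363.8 and 385.0 (Cy5), over backgrounds of 39 to 44, and the SD between repeated spots was 0.06 on the log2 scale; 1 array per comparison limits the precision. A ratio of at least 2-fold, the cut-off of the study's methods, was counted where a probe exceeded the background clearly in 1 channel or both. Gene names were updated through RefSeq tables (GRCm38.p6), by accession for 22951 probes, by symbol for 6659 and by synonym for 3109, and 8455 were unmatched; coordinates are those of the scanner file (mm7). A list gene was read by its brightest probe. Where 1 channel was near background, the fold is a lower bound against the lowest signal well above background.

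All members and each of their probes are named, with Phlda1, pathway and hypothalamic list genes past 2-fold against both controls, and the receptors of members past 2-fold; regional markers are given as counts, and a few other list genes were named after their values were seen. The members and lists were chosen with earlier results of these data known. The normalisation was tested on simulated data. Alternatives were an offset of 0, the scanner ratio, median centring, no normalisation, the deposited ratio, other background filters, outlier spots kept, the median probe of a gene and another scaling between arrays. With no dye swap and no replicate, no test was run.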

Additional observations from a re-analysis of the deposited data

How the results depend on the processing

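Of 144 member log2 ratios under the alternatives, 123 stayed within the scanner error of the reported value and 21 moved beyond it. No called ratio changed sign. Against KO Tg, 5 member probes in place of 3 were at least 2-fold lower with the scanner ratio, with no normalisation and with the deposited ratio (Trh and Ghrh probe 2 added), and 2 in place of 1 were higher with offset 0, the scanner ratio and the deposited ratio (Agrp added). The median of the member genes was -0.51 against WT with no normalisation, and against KO Tg -0.68 with the scanner ratio, -0.68 with the deposited ratio and -0.79 with no normalisation, which also moved the median of all probes to -0.15 and -0.18.

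Counts of all probes past 2-fold depended on the setting. Lower against WT were 1527 as reported, 2656 with offset 0, 3269 with the scanner ratio, 2854 with no normalisation and 3356 with the deposited ratio. Higher against WT were 1695 as reported, then 3140 with offset 0, 4024 with the scanner ratio, 3907 with the deposited ratio and 1159 with no normalisation. Against KO Tg, 1304 were lower as reported, 2258, 2753, 2943 and 2907 with offset 0, the scanner ratio, no normalisation and the deposited ratio. Higher were 1595 as reported, and 2952, 3793, 935 and 3563 in the same order. Against both controls 457 were lower as reported, 821, 1035, 757, 1233 and 1101 with offset 0, the scanner ratio, median centring, no normalisation and the deposited ratio. Higher against both were 896 as reported, and 1552 with offset 0, 2038 with the scanner ratio, 582 with no normalisation and 1938 with the deposited ratio. The higher share of called probes was 52.6% against WT and 55.0% against KO Tg, and 28.9% and 24.1% with no normalisation; with median centring it was 45.9% and 44.7%. The cause was not tested. No paired analysis was possible because each comparison is 1 array with no replicate. Dim probes such as Agrp and Trh were limited by their signal over background.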
